A study of Mus musculus with 59 samples.

Results

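CTCF peaks that stood in the day 12 list of reprogramming cells, but in no earlier control list and not in embryonic stem cells (ESCs), numbered 1220 of 53043 (2.30%). They are called day 12-selected sites here. The day 12 cells were Oct4-GFP+ cells carrying an shRNA against luciferase. A site was taken when its interval of 400 bp overlapped, by at least 1 bp, no peak of the control lists of day 0, Thy1+, SSEA1- Thy1- and SSEA1+ cells and no CTCF peak of wild-type ESCs. The sites were thus chosen by presence or absence of a peak in these 6 lists, so their absence there is not a result. The name refers to those 6 lists only: 342 of the sites (28.0%) were in at least 1 list other than those of day 12, among them 193 in Ctcf shRNA lists of earlier cells and 58 in day 10 lists. In ESCs, 154 (12.6%) overlapped a CTCF peak of Smarca5 knockout ESCs or a SMARCA5 peak of ESCs. Of the day 12 control peaks that overlapped an earlier control peak, 99.2% were in a list other than those of day 12. For these peaks the shares were 92.1% in Ctcf shRNA lists of earlier cells, 80.9% in day 10 lists and 95.7% in those ESC lists. Day 12 control peaks shared with wild-type ESCs but no earlier control list had 96.2%, 12.7%, 20.3% and 95.5% in the same order.

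The cells were mouse embryonic fibroblasts from animals with an Oct4-GFP reporter, reprogrammed with Oct4, Sox2, Klf4 and c-Myc (OSKM). In the sorted series, doxycycline switched on OSKM from 1 inducible lentivirus, and each sorted population carried an shRNA against luciferase (the control) or against Ctcf. Thy1+ cells were taken on days 3 and 9, SSEA1- Thy1- and SSEA1+ cells on days 6 and 9, and Oct4-GFP+ cells on day 12. Separate day 10 cells carried OSKM alone, OSKM with added Ctcf, or OSKM with added Ctcf and an shRNA against Smarca5. The ESCs were the E14 line, wild type or with Smarca5 knocked out, and a further ESC group carried an overexpressed tagged SMARCA5. For the day 3 Thy1+ samples, the title and the description disagree on which sample belongs to which Thy1+ list, and each list was taken as the shRNA its file name gives. Each of the 16 groups had 1 deposited peak list, made from 1 to 3 ChIP samples, with 23600 to 89567 peaks. No list exists per replicate, so the spread between cultures is unknown, no test over samples was possible, and intervals below cover counting error only. Peak lists hold no expression values, so the labelled cell types could not be checked against marker genes.

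CTCF is a zinc-finger protein that binds a long DNA motif, blocks contacts between enhancers and promoters, and halts cohesin so that chromatin loops form between its sites. SMARCA5 (SNF2H) is the motor of ISWI complexes, which slide nucleosomes and keep them phased beside bound CTCF. Many CTCF sites are shared between cell types, and the remainder differ with DNA methylation and chromatin access.

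Of the 1220 sites, 102 overlapped the start of a protein-coding gene. The part of the 250 bp before the start that the peak covers is shown for the first 6 by chromosome and position. Motif shares at starts, given below, differed for CCAAT and a loose CTCF core from day 12 peaks that overlapped an earlier control peak. They differed less from day 12 peaks that were late but shared with ESCs. Sequences are from RefSeq, build GRCm38.p6, and run 5′ to 3′ on the gene's strand. They are Ptpn18 at chr1:34459680-34459745 (+ strand), Mrps9 at chr1:42851091-42851232 (+ strand), Idh1 at chr1:65186573-65186729 (- strand), Cnot9 at chr1:74505810-74506059 (+ strand), Hdac4 at chr1:92180512-92180591 (- strand) and Fam72a at chr1:131527653-131527856 (+ strand). Capitals mark GGGCGG, the GC box that SP and KLF factors bind, and CCAAT, the box that NF-Y binds, on either strand.
Ptpn18: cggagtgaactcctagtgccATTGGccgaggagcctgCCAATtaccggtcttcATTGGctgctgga
Mrps9: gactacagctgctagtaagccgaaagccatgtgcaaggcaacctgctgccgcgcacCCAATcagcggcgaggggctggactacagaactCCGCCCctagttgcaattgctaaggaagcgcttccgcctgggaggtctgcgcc
Idh1: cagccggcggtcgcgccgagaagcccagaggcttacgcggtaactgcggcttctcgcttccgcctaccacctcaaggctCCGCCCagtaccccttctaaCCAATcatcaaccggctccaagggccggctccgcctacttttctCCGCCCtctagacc
Cnot9: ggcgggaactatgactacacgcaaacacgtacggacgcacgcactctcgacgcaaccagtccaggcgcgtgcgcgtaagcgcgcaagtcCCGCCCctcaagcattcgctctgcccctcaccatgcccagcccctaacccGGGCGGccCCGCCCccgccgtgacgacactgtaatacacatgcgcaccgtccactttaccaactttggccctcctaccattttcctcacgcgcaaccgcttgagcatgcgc
Hdac4: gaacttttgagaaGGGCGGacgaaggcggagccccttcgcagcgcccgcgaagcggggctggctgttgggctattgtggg
Fam72a: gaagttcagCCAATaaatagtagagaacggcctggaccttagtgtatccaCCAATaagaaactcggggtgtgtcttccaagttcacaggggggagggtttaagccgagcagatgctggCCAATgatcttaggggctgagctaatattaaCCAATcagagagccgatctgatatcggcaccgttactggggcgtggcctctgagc

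For comparison, 2 starts under other day 12 peaks are shown, chosen as the first with a match to a loose core of the CTCF motif. Capitals mark that core here, and other boxes are left in lower case. Each of these 2 stretches also held 2 CCAAT boxes, and neither held a GC box. Pms1 at chr1:53297029-53297278 (- strand) lay under a peak that was late but shared with ESCs, and Ankrd39 at chr1:36547253-36547502 (- strand) under one of the remaining peaks.
Pms1: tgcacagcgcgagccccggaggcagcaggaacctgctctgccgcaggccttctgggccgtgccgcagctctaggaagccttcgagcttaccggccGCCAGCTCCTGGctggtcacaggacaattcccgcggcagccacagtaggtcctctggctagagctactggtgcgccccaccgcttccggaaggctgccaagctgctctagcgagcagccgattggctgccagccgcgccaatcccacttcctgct
Ankrd39: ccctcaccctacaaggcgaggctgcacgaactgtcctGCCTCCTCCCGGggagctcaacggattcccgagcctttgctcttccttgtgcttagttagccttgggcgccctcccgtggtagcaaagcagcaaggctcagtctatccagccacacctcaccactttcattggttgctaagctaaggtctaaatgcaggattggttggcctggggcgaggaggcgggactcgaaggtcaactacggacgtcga

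The 6 starts belong to genes of unlike function. Ptpn18 encodes a protein tyrosine phosphatase, Mrps9 a mitochondrial ribosomal protein, Idh1 the cytosolic isocitrate dehydrogenase, Cnot9 a subunit of the CCR4-NOT deadenylase and Hdac4 a class IIa histone deacetylase. The Ptpn18 stretch held 3 CCAAT boxes and the Fam72a stretch held 4, with no GC box in either. The Cnot9 stretch held 3 GC boxes and no CCAAT box. None of the 6 held the loose CTCF core. With Ctcf shRNA at day 12, the peaks at Idh1, Hdac4 and Fam72a were found again, and those at Ptpn18, Mrps9 and Cnot9 were not. The Ptpn18 and Mrps9 peaks were each found in 1 other list, that of tagged SMARCA5 in ESCs.

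The sites were followed in the 10 lists that the choice did not use, beside the 2 other classes of day 12 control peaks. Late ESC sites (4373) overlapped a wild-type ESC peak but no earlier control peak, and other sites (47450) were the rest, which overlapped a peak of an earlier control list. With Ctcf shRNA at day 12, 446 of the 1220 day 12-selected sites were found again (36.6%, Wilson 95% interval 33.9 to 39.3), against 58.6% of all day 12 control peaks. Late ESC sites were found less often, at 24.3%, and other sites more often, at 62.3%. The difference from late ESC sites was 12.3 percentage points (Newcombe 95% interval 9.32 to 15.3), with day 12-selected sites higher on 19 of 20 chromosomes. The difference from other sites was -25.7 points (-28.4 to -23.0), with day 12-selected sites lower on all 20. A site missing from a list may be bound in fewer cells or bound less in each, and these cannot be told apart. The day 12 lists of both shRNAs share their start positions, which can raise overlap between them for every class.

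**Figure D1:**
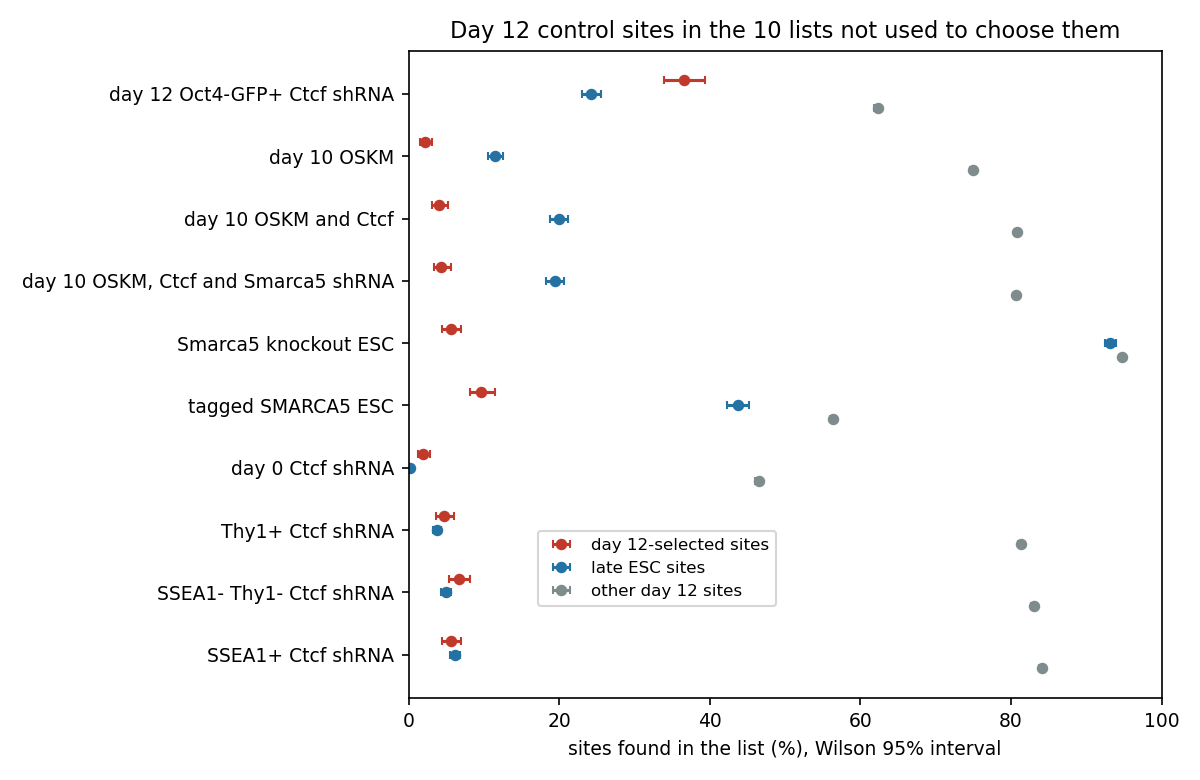
Share of sites found (x axis, %) in each of the 10 lists (y axis) for 1220 day 12-selected sites, 4373 late ESC sites and 47450 other day 12 sites; bars are Wilson 95% intervals, hidden by the points where short. Day 12-selected sites exceed late ESC sites at day 12 with Ctcf shRNA (36.6% against 24.3%) and fall below both classes in the day 10, Smarca5 knockout and SMARCA5 lists. The presence or absence in related lists that defines the classes bears on these shares.

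The day 10 lists held few of the sites. OSKM alone gave 26 (2.13%, 1.46 to 3.10), beside 68% of all day 12 control peaks. With added Ctcf the count was 49 (4.02%), beside 74.1%, and with added Ctcf and the Smarca5 shRNA it was 53 (4.34%), beside 73.9%. In all, 58 sites (4.75%) were in at least 1 day 10 list and 21 in all 3. Late ESC sites were in the same lists at 11.5%, 20.0% and 19.4%. The day 10 lists contain 43356, 52252 and 51635 peaks. The smallest count of day 12-selected sites was in the shortest list, but the largest was not in the longest. The part of list length in these counts was not tested.

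In ESCs without Smarca5, 68 of the sites (5.57%) had a CTCF peak, beside 92.5% of all day 12 control peaks. Tagged SMARCA5 was found at 118 (9.67%, 8.14 to 11.5), beside 54.3%, with late ESC sites at 43.8% and other sites at 56.4%. Both lists come from ESCs and share start positions with the wild-type ESC list that excluded sites, and the part of this in the low shares was not tested. Late ESC sites were required to have a wild-type ESC peak and other sites an earlier control peak, so the differences between classes are a description. At 32 sites (2.62%) the site overlapped both a knockout CTCF peak and a SMARCA5 peak, beside 41.5% of late ESC sites and 55.3% of other sites. Day 12-selected sites with SMARCA5 were found again with Ctcf shRNA at day 12 at 38.1% (29.9 to 47.1), and those without it at 36.4% (33.6 to 39.3), a difference of 1.75 points (-7.00 to 11.2). Among late ESC sites the 2 values were 28.2% and 21.3% (6.89 points, 4.32 to 9.48), and among other sites 69.4% and 53.1% (16.3 points, 15.4 to 17.2).

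The Ctcf shRNA lists of earlier cells held 193 of the sites (15.8%) in at least 1 of 4, although the control lists of the same cells had excluded them. Late ESC sites were in at least 1 of these lists at 12.7% and other sites at 92.1%. Day 0 cells held 23 (1.89%), beside 41.6% of all day 12 control peaks, and Thy1+ cells 58 (4.75%), beside 73.1%. SSEA1- Thy1- cells held 81 (6.64%), beside 74.8%, and SSEA1+ cells 68 (5.57%), beside 75.8%. For Thy1+ and SSEA1+ cells the difference from late ESC sites spanned 0, at 1.03 points (-0.19 to 2.47) and -0.55 points (-1.93 to 1.03). At day 0 it was 1.70 points (1.05 to 2.63), and in SSEA1- Thy1- cells also 1.70 points, with a wider interval (0.26 to 3.35).

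Seen from the other lists, 0.68% (SSEA1+ with Ctcf shRNA) to 12.3% (tagged SMARCA5) of their peaks overlapped none of the 5 excluding lists. These are the earlier control lists and wild-type ESCs. With Ctcf shRNA, 1099 day 12 peaks lay outside these 5 lists, and 446 of them (40.6%) overlapped a day 12-selected site. The same held for 58 of 311 Thy1+ peaks (18.7%), 81 of 305 SSEA1- Thy1- peaks (26.6%) and 68 of 303 SSEA1+ peaks (22.4%). These shares largely restate overlap with the day 12 control list. Over all peaks, 31062 day 12 control peaks were found in the day 12 Ctcf shRNA list of 35803 peaks. The numbers were 38773 for 45291 Thy1+ peaks, 39680 for 44283 SSEA1- Thy1- peaks and 40228 for 44622 SSEA1+ peaks. Outside the sorted cells, lower shares of the peaks outside the 5 lists overlapped a day 12-selected site. They ran from 0.84% of 8122 peaks in Smarca5 knockout ESCs to 3.10% of 741 peaks at day 0. The 4 lists with high shares are those with start positions in common with the day 12 control list, and the part of this in the overlap was not tested.

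Of the 1220 sites, 559 (45.8%) were in none of the 10 lists, 459 (37.6%) in 1, and 202 in more. Found with Ctcf shRNA at day 12 alone were 319 (26.1%), and found in tagged SMARCA5 alone 34. Leaving the day 12 list aside, 342 sites (28.0%) were in any other list, against 96.2% of late ESC sites. The late ESC share rests largely on the knockout ESC list, which holds 93.2% of them. The median number of lists per site was 1 for day 12-selected sites, 2 for late ESC sites and 8 for other sites. These counts are a description: late ESC sites were required to have a wild-type ESC peak and other sites an earlier control peak, and the followed lists include Smarca5 knockout ESCs and the same earlier cells with Ctcf shRNA.

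**Figure D2:**
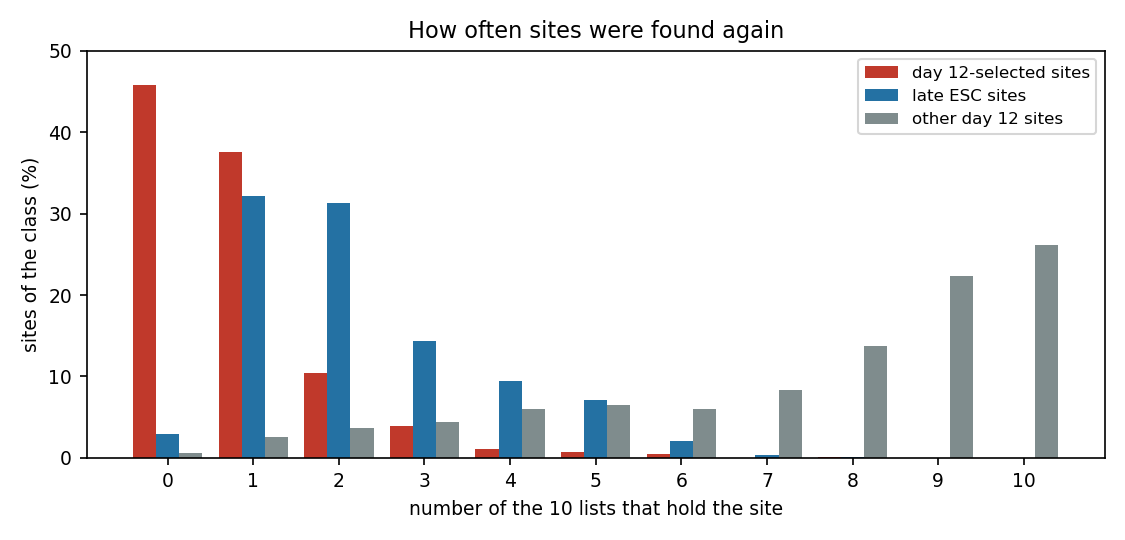
Share of each class of day 12 control sites (y axis, %) by the number of the 10 followed lists that hold them (x axis). Day 12-selected sites pile up at 0 lists (45.8%) and 1 list (37.6%), late ESC sites at 1 and 2, and other sites at 9 and 10; the presence or absence in related lists that defines the classes bears on these counts.

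Sites found in a single control list were also counted for the 4 other control groups, with all 5 control lists and wild-type ESCs as the excluding set, and followed in the Ctcf shRNA list of their own cells. Day 0 had 421 (1.46% of its list), Thy1+ 1534 (2.91%), SSEA1- Thy1- 333 (0.65%) and SSEA1+ 507 (0.98%), beside 1220 (2.30%) at day 12. The share kept with Ctcf shRNA was 15.4% at day 0 (12.3 to 19.2), 33.0% in Thy1+ cells (30.7 to 35.4), 13.5% in SSEA1- Thy1- cells (10.3 to 17.6) and 15.4% in SSEA1+ cells (12.5 to 18.8). At day 12 it was 36.6%, although this Ctcf shRNA list kept the smallest share of its control peaks as a whole, 58.6% against 73.3% to 82.0% in the other cells. Divided by the share of all peaks kept, day 12-selected sites reached 0.624, and single-list sites of the other groups 0.165 to 0.407. The day 12 lists were made from 3 samples each and the other sorted lists from 2, and the part of that number in these shares was not tested. Labels of the day 3 Thy1+ samples conflict, and the part of that in the Thy1+ shares was not tested either.

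**Figure D3:**
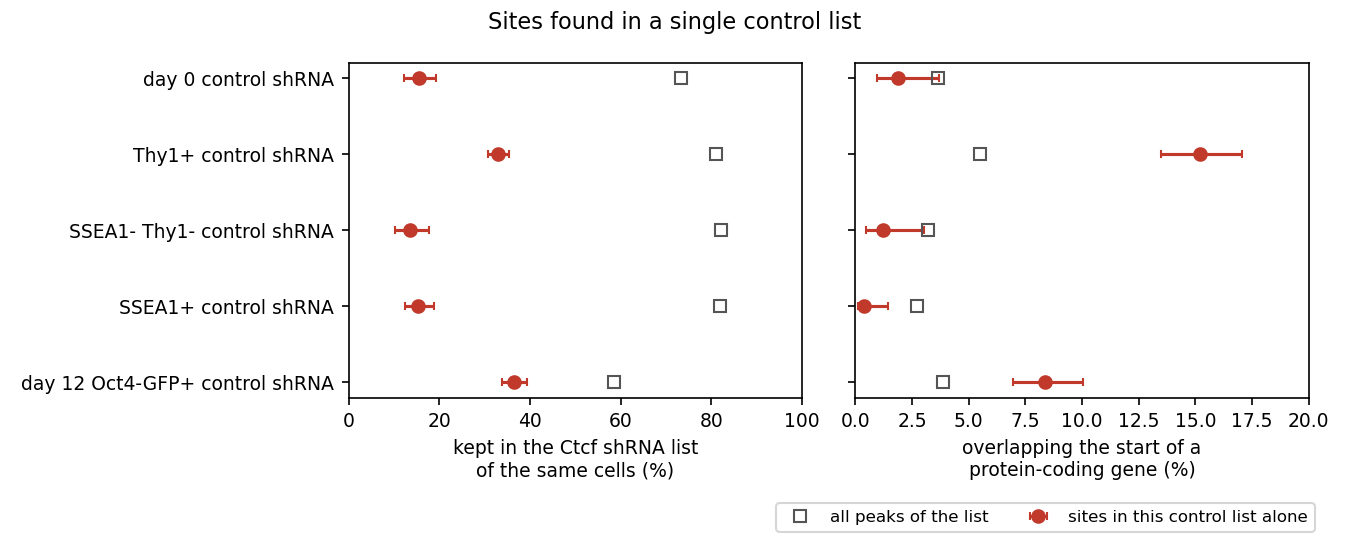
Sites found in 1 control list alone (filled points, Wilson 95% intervals) and all peaks of that list (open squares), by control group (y axis): share kept in the Ctcf shRNA list of the same cells (left, %) and share overlapping the start of a protein-coding gene (right, %). Day 12 sites alone were kept at 36.6% and Thy1+ sites alone at 33.0%, the other 3 groups at 13.5% to 15.4%. The same 2 groups had the larger shares at gene starts, 8.36% and 15.2%. Labels of the day 3 Thy1+ samples conflict.

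The sites lay both at gene starts and far from genes more often than the other classes did. A start here is a peak overlapping the RefSeq window from 250 bp before to 50 bp after the start of a protein-coding gene. At starts were 102 day 12-selected sites (8.36%, 6.94 to 10.1), 3.61% of late ESC sites and 3.79% of other sites. The differences were 4.75 points (3.20 to 6.51; higher on 19 of 20 chromosomes) and 4.57 points (3.13 to 6.26; 18 of 20). At the other end, 184 sites (15.1%) were over 100 kb from any protein-coding gene, against 10.1% and 8.01%, differences of 5.00 points (2.88 to 7.28) and 7.07 points (5.16 to 9.20). Within protein-coding gene spans were 48.5%, 5.51 points below late ESC sites (-8.67 to -2.34). Another day 12 control peak lay within 2 kb of 15.9% of the sites, against 9.81% of late ESC and 10.5% of other sites.

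By chromosome, the share of day 12 control peaks that were day 12-selected ran from 1.21% on the X (18 of 1486) to 2.96% on chromosome 4 (104 of 3511), with 0 of 6 on the Y. At the limit of the choice, 9 sites had an excluding peak that did not touch them but began less than 100 bp from their edge. On the other side, 32 day 12 peaks were kept out by an overlap of 1 to 100 bp alone. For 616 sites (50.5%) no excluding peak lay within 5 kb, and the median distance from start to start of the nearest was 5495 bp.

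Among day 12-selected sites, those at gene starts were found again more often than those elsewhere. With Ctcf shRNA at day 12, 58 of 102 sites at starts were kept (56.9%, 47.2 to 66.1) and 388 of 1118 elsewhere (34.7%, 32.0 to 37.5), a difference of 22.2 points (12.1 to 31.8). Late ESC sites at starts were kept at 32.3% (25.5 to 39.9) and other sites at starts at 53.0%, the latter 3.86 points below day 12-selected sites with an interval that spans 0 (-6.09 to 13.3). Away from starts, late ESC sites were kept at 24.0% and other sites at 62.65%, so other sites were kept less often at starts than elsewhere. There, day 12-selected sites still exceeded late ESC sites by 10.7 points (7.69 to 13.8). In Thy1+ cells with Ctcf shRNA, 21 of the 102 (20.6%) had a peak, against 3.31% of sites elsewhere (17.3 points, 10.5 to 26.2). For tagged SMARCA5 the values were 20 of 102 (19.6%) and 8.77% (10.8 points, 4.06 to 19.7). In the 6 lists from day 10 cells, Smarca5 knockout ESCs, SSEA1- Thy1- and SSEA1+ cells, each interval for starts against elsewhere spanned 0. The interval at day 0 did so too, where 0 of 102 sites at starts had a peak. That allows a share of up to 2.94%, taken as 3 counts of 102 rather than as a Wilson limit. The splits by start, by gene body and by SMARCA5 were chosen after the values were seen.

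**Figure D4:**
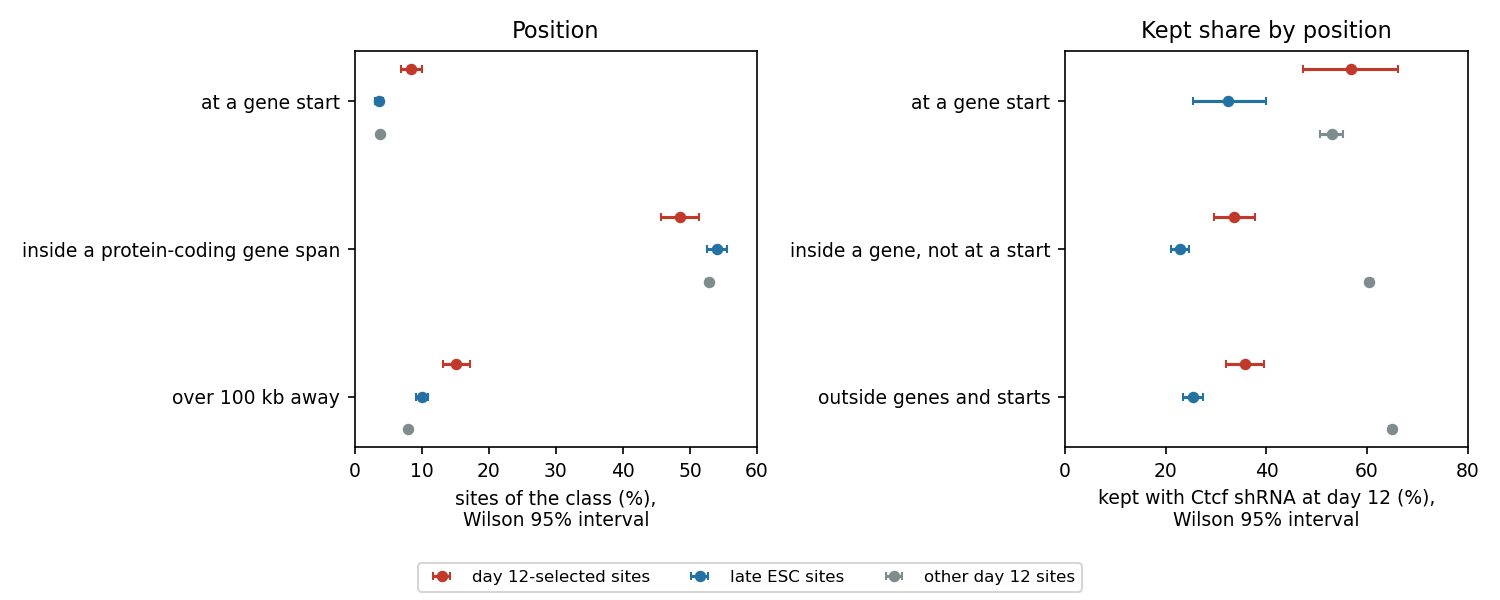
Left, share of each class (x axis, %) at a gene start, inside a protein-coding gene span and over 100 kb from one; right, share kept with Ctcf shRNA at day 12 (x axis, %) by position; bars are Wilson 95% intervals. Day 12-selected sites lead at starts (8.36%) and over 100 kb away (15.1%), and those at starts were kept at 56.9%.

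Motifs were searched on both strands of the 134 start windows, of 118 genes, that the 102 sites overlapped; windows of 1 gene or of a divergent pair share sequence. The core of the CTCF motif was written as CC, A, any 2 bases, AG, any 2 bases and GGC, and the loose core, which includes it, with any base in place of the first A. The core stood in 3 windows (2.24%, 0.76 to 6.38), beside 3.70% of windows under late ESC sites, 9.42% under other sites and 2.34% of all 21263 start windows. The loose core stood in 9 (6.72%, 3.57 to 12.3), beside 13.8%, 29.9% and 9.88%. For the loose core, day 12-selected windows minus those of other sites gave -23.2 points (-27.0 to -17.3). Their difference from late ESC windows was smaller, at -7.04 points (-13.5 to -0.08), and that from all start windows spanned 0 (-3.16 points, -6.33 to 2.41). For the stricter core the difference from late ESC windows spanned 0 (-1.5 points, -5.49 to 3.09). Counted per peak, 8.82% of the 102 sites at starts, 15.8% of late ESC sites there and 31.3% of other sites there had the loose core in any window.

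The GC box stood in 83.6% of the day 12-selected windows, beside 73.0%, 65.5% and 46.2% in the same order. CCAAT stood in 64.2% (55.8 to 71.8), beside 51.9%, 36.8% and 38.2%, which put it 27.4 points above other sites (18.7 to 35.3) and 12.3 above late ESC sites (1.38 to 22.7). Both boxes together stood in 51.5%, 39.7%, 24.4% and 16.9%. Counted per peak, CCAAT was at 64.7%, 49.4% and 38.0%, and the GC box at 87.3%, 69.6% and 66.4%. Mean GC content was similar in the 3 classes: 60.3% ± 7.39 (SD over windows, n = 134) for day 12-selected sites, 61.4% for late ESC and 61.9% for other sites, and 56.2% for all windows. Among windows with 50 to 60% GC, CCAAT stood in 72.3%, 58.1%, 38.6% and 41.0%, and among those with 60 to 70% GC in 61.5%, 48.8%, 39.1% and 37.1%. In the few windows with 70 to 80% GC (10 for day 12-selected sites) the order differed, at 30.0%, 45.5%, 28.8% and 24.5%. In windows of kept sites CCAAT stood in 73.1% (62.3 to 81.7), and in windows of sites not kept in 51.8% (39.0 to 64.3), a difference of 21.3 points (4.77 to 36.7). For the other 4 motifs compared in this way the interval of that difference spanned 0. The windows of kept sites and of sites not kept, 78 and 56, come from 102 peaks. Intervals counted by window treat windows of 1 peak as independent, so they may be too narrow. No count per peak was made for kept sites against sites not kept. The ETS core CCGGAAG, at 19.4%, was within 1.30 points of both other classes and 7.84 points (2.02 to 15.4) above the 11.6% of all start windows. Of 9 motifs searched, 7 (all but the 2 CTCF cores) were chosen after sequences had been seen, and a match describes letters, not binding.

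**Figure D5:**
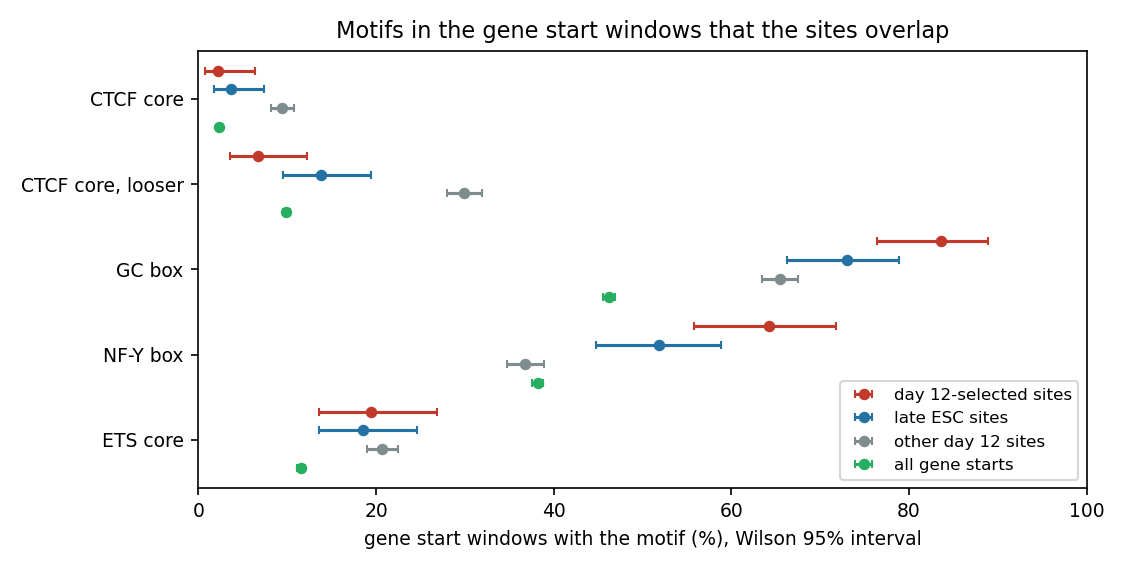
Share of start windows with a motif (x axis, %; Wilson 95% intervals) for 5 of the 9 motifs, in windows under day 12-selected, late ESC and other day 12 sites and in all 21263 gene start windows. The loose CTCF core is at 6.72% for day 12-selected sites against 29.9% for other sites, and the NF-Y box (CCAAT) at 64.2% against 36.8%.

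Further starts among the 102, named after their values were seen, show the range of functions. Gsk3b, the kinase that marks beta-catenin for destruction, Sin3a, the scaffold of a histone deacetylase complex, Hmgcs1, an enzyme of cholesterol synthesis, Apaf1, the core of the apoptosome, and Klf9, a zinc-finger factor, each had a peak kept with Ctcf shRNA at day 12 and found in no other of the 10 lists. The peak at Knl1, a kinetochore scaffold, was kept too and also had SMARCA5. Cenpf, another kinetochore protein, had a peak found in none of the 10.

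Across 13 gene lists of pluripotency, cell type and chromatin genes (280 of 281 symbols matched), 11 sites lay inside or within 10 kb of 11 genes. All 280 genes together had 588 day 12 control peaks in that range, so day 12-selected sites made up 1.87%, beside 2.30% of all day 12 peaks. In the pluripotency list, 3 of 92 peaks were day 12-selected. Klf2, a naive pluripotency factor, had its site 2522 bp away, found in 1 list, that of SSEA1- Thy1- cells with Ctcf shRNA. Esrrb, an orphan nuclear receptor of the same network, had a site inside the gene that was in none of the 10 lists. Jarid2, a cofactor of Polycomb repressive complex 2, had a site 8194 bp away that was kept with Ctcf shRNA at day 12.

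Of the 65 peaks near genes for CTCF, cohesin and ISWI, 4 were day 12-selected. The sites in Stag1, a cohesin subunit, and Wapl, which releases cohesin, were in none of the 10 lists, and the one in Smc1b, a meiotic cohesin subunit, was found in SSEA1- Thy1- cells with Ctcf shRNA. Baz1a, a partner of SMARCA5, had a site inside the gene that was kept at day 12 and also found in those SSEA1- Thy1- cells. The site in Sycp3, which encodes a synaptonemal complex protein, was kept at day 12, and the one in Dcn, which encodes the matrix proteoglycan decorin, was in none of the 10 lists. The site 8123 bp from Cebpb, a factor of myeloid and fat cells, had SMARCA5 in ESCs and a peak in SSEA1- Thy1- cells with Ctcf shRNA. The lists of primed, trophoblast and endoderm, neural, Hox, imprinted, senescence and signalling genes had 0 sites, the last beside 81 day 12 control peaks and the others beside 17 to 44 each, numbers at which the overall share of 2.30% gives few sites or none.

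Most genes near a site had 1: of 990 protein-coding genes with a site inside or within 10 kb (of 21900), 943 had 1, 41 had 2 and 6 had more. Zfp981 and Zfp993, overlapping zinc-finger genes on chromosome 4, had 4 sites each out of 7 day 12 peaks and shared 3 of them. The site at chr4:146517963-146518362, inside both, was kept with Ctcf shRNA at day 12 and found in 2 day 10 lists. Near-identical copies of such genes can share reads, so these positions are uncertain. Gphn, which encodes the synaptic scaffold gephyrin, had 4 sites of 9 peaks spread over its 467.4 kb, and none of the 4 was in any of the 10 lists. Ctnna3, an alpha-catenin gene of 1574 kb, had 3 of 30, also in none. Prkar1b, a regulatory subunit of protein kinase A, and its neighbour Dnaaf5 shared 3, of which 1 lay at both starts. Usp37, a deubiquitinase, and Srgap2, a GTPase activator, had 2 each, 1 of them at a start shared with Cnot9 and Fam72a.

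Dense clusters were rare, with 5 windows of 100 kb that held 3 sites each and 47 that held 2. Next to each other on chromosome 4 were 2 of the 5, from 146400001 to 146600000, around Zfp992, Zfp981 and Zfp993; all 6 sites there were found in at least 1 of the 10 lists. On chromosome 7 the window held a site in Srcap, a chromatin remodeller that deposits a histone variant, one at the start of Phkg2, a phosphorylase kinase subunit, found in 5 lists, and one at the shared start of Ccdc189 and Rnf40, found in 2. On chromosome 19 the 3 sites lay 38323 bp from Klf9, at its start and inside it, and the one kept was at its start. The remaining window was that of Prkar1b on chromosome 5.

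Few sites recurred widely. The most frequent, chr7:126643036-126643435, 4951 bp from Sgf29 (a chromatin reader of the SAGA complex), was in 8 of the 10 lists, all but tagged SMARCA5 and SSEA1- Thy1- cells with Ctcf shRNA. The site at the divergent start of Idh1 and Pikfyve, a lipid kinase, was in 6: day 12 with Ctcf shRNA, the 3 day 10 lists, Smarca5 knockout ESCs and tagged SMARCA5. Sites 29489 bp from Zfp978 and 18783 bp from Vmn1r39, a vomeronasal receptor gene, were in the same 6. Those in Slco3a1, an anion transporter, in 9530077C05Rik and in Brd8dc were in 6 lists, and the one at the start of Ppp1r12b, a myosin phosphatase subunit, in 5. Such sites, 15 in 5 or more lists, are exceptions among the 1220.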

How the data were processed

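CTCF ChIP-seq peaks of 15 groups and SMARCA5 peaks of 1 group were used, from 31 ChIP samples; the 28 inputs were left aside. The build was mm10 (GRCm38), per the submitters' processing notes, which also name Trim Galore, Bowtie2, SAMtools, Picard, MACS2, HOMER and bedtools. Thresholds, pooling and depth were not given in the sources used here. The score in the authors' deposited lists is 0 in every line and every interval is 400 bp wide, so peaks could not be ranked. Lists were compared with Python 3.11.15 and NumPy 2.4.6 (figures: matplotlib 3.10.9) by overlap of at least 1 bp. Shares have Wilson and differences Newcombe 95% intervals, with no p. The members and lists were chosen with earlier results of these data known.

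Genes, starts and start sequences are RefSeq's. The plan was to search motifs in whole intervals if a genome was given; none was, so start windows were searched. Named genes were up to 4 per gene list with a site within 10 kb, the 8 genes with most sites, the 8 sites in most lists, the 5 densest windows of 100 kb and the first 6 sites at starts; others are marked as chosen later. A result that the rule for named genes would give is not reported here. Alternatives were a reciprocal overlap of 50%, margins of 1 and 5 kb, other uses of the Thy1+ lists, autosomes only, sites off starts, other gene distances and the loose CTCF core. Scripts were tested on simulated data.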

Additional observations from a re-analysis of the deposited data

How the results depend on the processing

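The number of day 12-selected sites was 1307 with a reciprocal overlap of 50%, 1023 with no excluding peak within 1 kb, 1162 with both Thy1+ lists excluding, 1475 with the Thy1+ control list left out and 1132 with the day 10 OSKM and Smarca5 knockout lists excluding too, all within 1.5 times 1220. The share kept with Ctcf shRNA at day 12 stayed between 34.7% and 37.0%, and its difference from late ESC sites between 10.7 and 12.5 points. A reciprocal overlap of 50% moved the shares in the day 10 lists to 1.30% (OSKM), 2.91% (with Ctcf) and 3.21% (with Ctcf and Smarca5 shRNA), and the SMARCA5 share to 8.11%; it requires starts at most 200 bp apart. The loose CTCF core, which admits more sequences, moved the motif share from 2.24% to 6.72%. In start windows that the central 200 bp of a site overlap (104), the CTCF core was at 1.92%, CCAAT at 64.4% and the GC box at 82.7%. Of the alternative values for shares and differences, 32 lay within the 95% interval of the value reported and 7 moved beyond it; the other 2 of these are the gene distances, with 56.2% of sites within 2.5 kb and 79.3% within 50 kb of a gene, beside 65.7% within 10 kb. No paired analysis was possible because each group has 1 list pooled over its samples, and replicates could not be left out in turn for the same reason. A stricter peak threshold could not be tried, since the score is 0 in every line. Depth is not given in the sources used here, so sites missed for lack of reads cannot be told from unbound ones.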

Other observations

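Within 1 kb of a tRNA or miRNA gene of the RefSeq table lay 7 of the 1220 day 12-selected sites (0.57%, Wilson 95% interval 0.28 to 1.18), beside 0.39% of all day 12 control peaks; these sites were picked out after the values were seen. Near tRNA genes were 5 (0.41%, 0.18 to 0.96), beside 0.16% of late ESC sites and 0.15% of other sites, and near miRNA genes 2 (0.16%), beside 0.21% and 0.24%. The site beside n-TYgta9 and n-TAagc15, chr5:30887316-30887715, and the one beside n-TSgct7, at the start of Knl1, were each kept with Ctcf shRNA at day 12 and had SMARCA5 in ESCs. The site beside n-TQctg5 was kept too. The site beside n-TFgaa3 and n-TNgtt7 was found in the day 10 cells with added Ctcf, in those that also carried Smarca5 shRNA, and in Smarca5 knockout ESCs. The one beside n-TWcca5 was in none of the 10 lists. Transfer RNA genes occur as near-identical copies, so the placement of reads there is uncertain. Near miRNA genes, the site beside Mir5133, at the start of Glce, was found in Thy1+ cells with Ctcf shRNA, and the one beside Mir8102 in no list.

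Of the 58 day 12-selected sites found in Thy1+ cells with Ctcf shRNA, 21 (36.2%, Wilson 95% interval 25.1 to 49.1) lay at a gene start, against 8.64% of the 81 found in SSEA1- Thy1- cells and 8.82% of the 68 in SSEA1+ cells. In the remaining followed lists the share ran from 0 of 23 at day 0 to 16.95% of 118 with tagged SMARCA5. Over all 1220 day 12-selected sites it was 8.36%. The share of the whole Thy1+ Ctcf shRNA list at starts is not given here. Sites in the Thy1+ control list alone also lay at starts, at 15.2%, beside 5.52% of all Thy1+ control peaks. The Thy1+ samples are those whose labels conflict for day 3.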
